A study of Homo sapiens with 20 samples.

Results

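The response of SKBr3 cells to heregulin (HRG) was measured by setting 2 arrays of HRG-treated cells against 2 arrays of cells given vehicle, all transfected with a control siRNA (siC). The genes compared were those detected, at a detection p-value under 0.01, on both arrays of either group. They numbered 8355 of the 9592 genes measured in the whole series. Of the 8355 genes, 7553 were detected in both groups, 422 only with HRG and 380 only with vehicle. SKBr3 is an established human breast cancer line in which the ERBB2 gene is amplified. The series held 20 Illumina HumanHT-12 v4 arrays in 10 groups of 2. In the groups used here, cells were deprived of serum and then received HRG, EGF or PBS, the vehicle, with the growth factors at a stated dose of 100 µM. The sources differ on the exposure, which is 24 h in the labels and 3 h in the methods of the study, so that the time at which the response was read is not settled. All had been transfected for 60 h with siC or, in parallel groups, with an siRNA against the nuclear receptor ERRα (siERRα). Different lengths of serum deprivation, 24 h and 48 h, stand in the labels. Nothing states that replicates were separate cultures, and p-values therefore measure the spread between these arrays, which may be technical.

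HRG, the product of NRG1, is a ligand of the receptors ERBB3 and ERBB4. ERBB3 has little kinase activity of its own and signals as a heterodimer with ERBB2, which has no known ligand. In ERBB2-amplified cells this pair is a strong activator of the PI3K-AKT pathway and of the RAS-MAPK cascade. MAPK activity induces immediate early transcription factors, among them the FOS and JUN proteins that form AP-1, and later a set of inhibitors that act back on the receptors and kinases. AKT phosphorylates FOXO factors and keeps them out of the nucleus, so that their target genes are less transcribed.

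One array outside the comparison stood apart. Replicate 1 of the EGF-treated siERRα cells correlated with the other arrays at 0.830 to 0.875 across genes, whereas the other 19 correlated with each other at 0.933 to 0.990. It carries no HRG or vehicle RNA, but all arrays share one estimate of the spread, and the median residual SD of a gene was 0.279 on the log2 scale with 20 arrays and 0.206 with 19. Counts without it, called counts with 19 arrays, are given beside the others where they differ by more than 1.5 times. The arrays compared had 12582 to 13961 detected probes. The HRG replicates correlated at 0.982 and the vehicle replicates at 0.985, against 0.962 to 0.972 for an HRG array with a vehicle array. The line's own markers were detected in both groups. ERBB2 was at 14.09 and 14.10 with HRG, against 14.09 and 14.23 with vehicle, and KRT8, KRT18, KRT19 and EPCAM were detected in both groups. CDH1, the E-cadherin that SKBr3 cells are known to lack, was below detection. No fibroblast marker of 8 was detected, and of 11 leukocyte markers only CD68 and HLA-DRA were.

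More genes were called higher than lower with HRG, and the widest changes were upwards. In the limma fit of all 20 arrays, 273 genes passed an adjusted p of 0.05, which is 3.27% of those compared. Of these, 183 were higher with HRG (2.19%) and 90 lower (1.08%). Without the array that stood apart the count was 709 (8.49%), with 409 higher (4.9%) and 300 lower (3.59%), and all 273 were among them. The 155 rises whose probe was detected on at least 1 array of each group had a median log2 fold change of 1.24 and ran from 0.57 to 3.45. The 76 falls detected in this sense had a median of -1.19 and ran from -2.33 to -0.70. With the undetected genes at their bound, the medians were 1.21 and -1.11. By fitted values, more than 2-fold changes numbered 133 among the rises and 68 among the falls, and more than 4-fold changes 32 and 4. Of the rises, 27 were of genes undetected on both vehicle arrays, and of the falls, 14 were of genes undetected on both HRG arrays. For these the fitted value is no measure of size and a bound is given. Over all genes compared the median was -0.05, with 3690 log2 fold changes positive and 4665 negative. The arrays of the groups did not overlap in 4512 genes, 54%. Precision was limited by the 2 arrays per group. The call held with any 1 of the 4 arrays left out for 57 genes, 47 rises and 10 falls. The number of all calls was 79 without HRG replicate 1, 139 without HRG replicate 2, 96 without vehicle replicate 1 and 83 without vehicle replicate 2. The genes with the largest changes were taken from these 57.

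By fitted value, PHLDA1, TNF and IL1RL1 led the rises whose call held with any 1 array left out. All values are log2 intensities after background correction and normalization. PHLDA1, a pleckstrin homology-like protein induced by MAPK signalling, was at 8.95 and 9.87 with HRG, against 4.63 and 4.85 with vehicle. It was not above background with vehicle on either array and was at least 11.6-fold higher with HRG (adjusted p = 7.11e-05). A dimmer second probe of PHLDA1 gave a log2 fold change of 1.67. TNF, the inflammatory cytokine, was at 9.08 and 8.58 with HRG, against 5.99 and 5.35 with vehicle, where 1 of the 2 arrays detected it (log2 fold change 3.16, SE 0.26, adjusted p = 3.25e-05). Both HRG arrays lay more than 2 log2 units above both vehicle arrays for each of these genes. IL1RL1, the receptor of IL-33, was at 8.69 and 7.83 with HRG, against 5.54 and 4.79 with vehicle, and was at least 5.22-fold higher (adjusted p = 0.000819), and its second probe gave a log2 fold change of 1.99. S100A3, a calcium-binding protein, was at 9.78 and 9.92 with HRG, against 6.79 and 7.22 with vehicle, a log2 fold change of 2.85 (SE 0.21, adjusted p = 1.55e-05). ERRFI1, which binds the ErbB kinases and inhibits them, was at 11.27 and 11.71 with HRG, against 8.59 and 8.84 with vehicle (log2 fold change 2.77, SE 0.28, adjusted p = 0.000221). None of the 3 genes overlapped between the groups, and IL1RL1 had the widest spread between replicates.

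ADM, the vasoactive peptide adrenomedullin, was at 11.42 and 11.38 with HRG, against 8.95 and 8.53 with vehicle (log2 fold change 2.66, SE 0.20, adjusted p = 1.6e-05). CDKN1A, the CDK inhibitor p21, was at 12.001 and 12.098 with HRG, against 9.55 and 9.87 with vehicle (log2 fold change 2.34, SE 0.17, adjusted p = 1.55e-05). PDGFB, a chain of platelet-derived growth factor, was at 9.69 and 9.46 with HRG, against 7.27 and 7.23 with vehicle (log2 fold change 2.33, SE 0.35, adjusted p = 0.00269). In these 3 genes the replicates of a group lay within 0.5 log2 units of each other, far less than the distance between the groups. DKK1, a secreted inhibitor of Wnt signalling, rose by 2.58 on the log2 scale (adjusted p = 0.000277), and CAVIN1, a coat protein of caveolae, by 2.54 (adjusted p = 0.000875). The remaining 2, TMEM40 and KIAA1210, were undetected on both vehicle arrays and at least 5.07-fold and 3.44-fold higher with HRG (adjusted p = 0.000221 and 0.00146).

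SLC40A1, TXNIP and VAV3 led the falls whose call held with any 1 array left out. SLC40A1, ferroportin, the iron exporter of the plasma membrane, was at 6.20 and 6.67 with HRG, against 8.90 and 8.63 with vehicle (log2 fold change -2.33, SE 0.32, adjusted p = 0.00157). Its second probe gave -0.65. TXNIP, an arrestin that binds thioredoxin and lowers glucose uptake, was at 8.67 and 7.95 with HRG, against 10.64 and 10.41 with vehicle (log2 fold change -2.22, SE 0.28, adjusted p = 0.000829). The HRG arrays lay more than 1.5 log2 units below the vehicle arrays for SLC40A1 and TXNIP. VAV3, a guanine nucleotide exchange factor, was at 6.41 and 5.83 with HRG, against 8.16 and 8.23 with vehicle (log2 fold change -2.08, SE 0.30, adjusted p = 0.00222), and its second probe gave -1.79. TOB1, an antiproliferative protein that binds the CCR4-NOT deadenylase, was at 9.38 and 9.21 with HRG, against 10.75 and 11.06 with vehicle (log2 fold change -1.61, SE 0.20, adjusted p = 0.000829). CDC42EP4, an effector of CDC42, was at 9.78 and 9.94 with HRG, against 11.26 and 11.37 with vehicle (log2 fold change -1.45, SE 0.19, adjusted p = 0.00109). The groups were apart in all 3, with the closest arrays of TOB1 1.37 log2 units from each other.

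TMPRSS2, a serine protease of the epithelial surface, fell by 1.61 on the log2 scale with HRG (adjusted p = 0.00274). TRIL, an accessory protein of Toll-like receptors, fell by 1.51 (adjusted p = 0.00054). PRR15L and TBC1D31, a centriolar satellite protein, fell by 1.18 and 1.15 (adjusted p = 0.00222 and 0.00162). Each lost its call in an alternative limma fit, at adjusted p-values up to 0.0645 and 0.0515. The last, IGF1, was at 4.91 and 4.84 with HRG, not above background, against 6.04 and 6.08 with vehicle, close to the detection limit. It was at least 1.16-fold lower (adjusted p = 0.00157), and its call was lost without background correction and in the authors' normalized table, at adjusted p-values up to 0.0933.

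**Figure D1:**
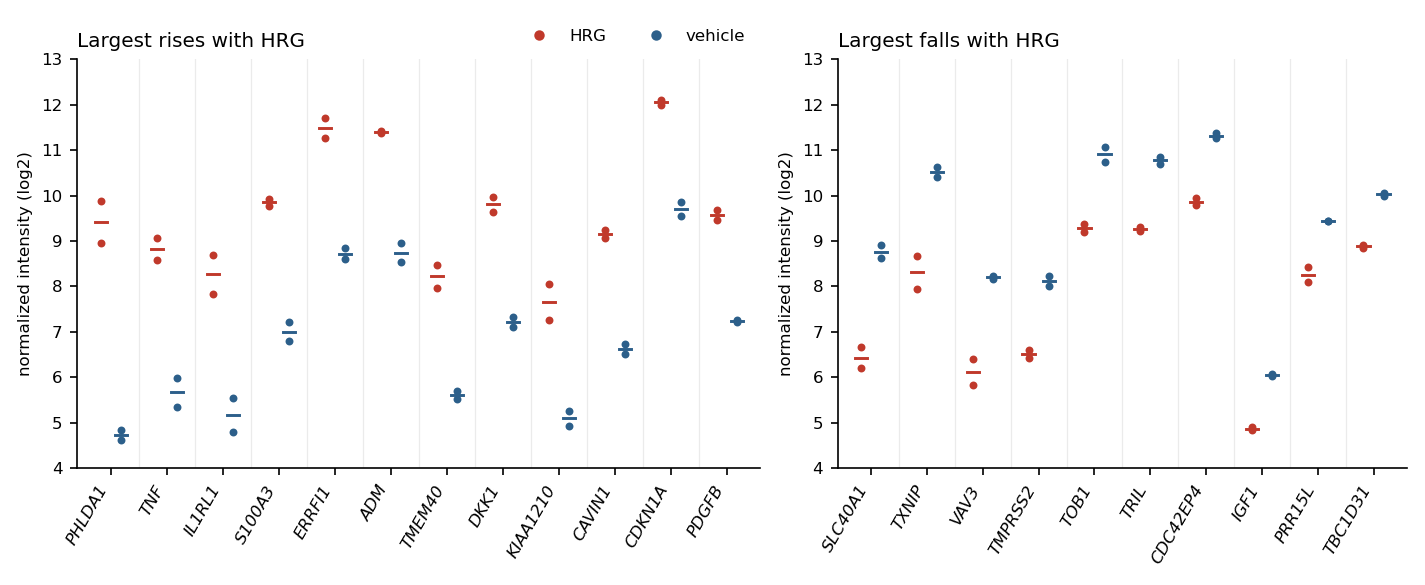
Normalized log2 intensity (y axis) of the 12 largest rises and the 10 largest falls (x axis) among genes whose call held with any 1 array left out. Points are single arrays, red for HRG and blue for vehicle, and bars are the means of 2 arrays. The HRG arrays of PHLDA1 sit at 8.95 and 9.87, above both vehicle arrays, and those of SLC40A1 at 6.20 and 6.67, below both vehicle arrays.

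The promoters of the 4 largest rises and the 2 largest falls are shown, since these genes carry the largest changes among the calls that held with any 1 array left out. The sequences are from RefSeq (GRCh38.p14), 250 bases before to 50 after the annotated start, and run along the gene's strand. Capitals mark matches, on either strand, to 8 motifs, which were AP-1 (TGANTCA), CRE (TGACGTCA), FOXO (GTAAACA), the ERR element (TCAAGGTCA), the E-box (CACGTG), EGR (GCGNGGGCG), the CArG box bound by SRF, and NF-kB.
PHLDA1, chr12:76031727-76032026, minus strand: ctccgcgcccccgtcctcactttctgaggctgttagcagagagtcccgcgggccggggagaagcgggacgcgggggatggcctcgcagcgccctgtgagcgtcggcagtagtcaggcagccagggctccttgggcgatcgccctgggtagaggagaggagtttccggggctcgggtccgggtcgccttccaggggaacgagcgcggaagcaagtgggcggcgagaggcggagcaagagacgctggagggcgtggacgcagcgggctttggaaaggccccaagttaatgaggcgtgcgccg
TNF, chr6:31575315-31575614, plus strand: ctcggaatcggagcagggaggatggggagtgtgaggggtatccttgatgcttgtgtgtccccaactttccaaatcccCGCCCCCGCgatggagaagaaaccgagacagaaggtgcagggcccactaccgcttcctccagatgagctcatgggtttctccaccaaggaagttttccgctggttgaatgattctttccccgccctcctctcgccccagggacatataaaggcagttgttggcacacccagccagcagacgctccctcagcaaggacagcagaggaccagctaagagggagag
IL1RL1, chr2:102337007-102337306, plus strand: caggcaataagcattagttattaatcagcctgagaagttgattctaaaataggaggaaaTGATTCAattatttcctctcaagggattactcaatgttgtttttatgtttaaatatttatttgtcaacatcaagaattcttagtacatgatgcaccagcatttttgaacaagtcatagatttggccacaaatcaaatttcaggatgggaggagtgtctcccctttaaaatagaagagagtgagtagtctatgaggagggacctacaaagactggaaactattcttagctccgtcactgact
S100A3, chr1:153549209-153549508, minus strand: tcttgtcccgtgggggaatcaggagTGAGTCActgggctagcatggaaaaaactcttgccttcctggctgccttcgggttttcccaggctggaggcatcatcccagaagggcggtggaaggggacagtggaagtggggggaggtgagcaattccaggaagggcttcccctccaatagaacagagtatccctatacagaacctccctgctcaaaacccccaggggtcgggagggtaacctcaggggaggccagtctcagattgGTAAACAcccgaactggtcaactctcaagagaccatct
SLC40A1, chr2:189580737-189581036, minus strand: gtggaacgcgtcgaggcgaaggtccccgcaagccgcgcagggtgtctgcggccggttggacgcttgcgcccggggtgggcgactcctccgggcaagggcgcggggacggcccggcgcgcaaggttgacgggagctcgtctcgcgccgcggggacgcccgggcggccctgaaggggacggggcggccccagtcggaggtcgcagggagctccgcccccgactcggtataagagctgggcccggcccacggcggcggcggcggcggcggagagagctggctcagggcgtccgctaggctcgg
TXNIP, chr1:145996530-145996829, minus strand: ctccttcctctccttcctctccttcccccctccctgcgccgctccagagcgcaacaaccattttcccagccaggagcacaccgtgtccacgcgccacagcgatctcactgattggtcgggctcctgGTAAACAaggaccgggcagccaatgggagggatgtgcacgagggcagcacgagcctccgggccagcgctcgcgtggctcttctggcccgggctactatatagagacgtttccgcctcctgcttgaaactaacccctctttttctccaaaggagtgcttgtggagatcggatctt
The window of TNF held an EGR match on the other strand, that of IL1RL1 an AP-1 match, that of S100A3 an AP-1 and a FOXO match, and that of TXNIP a FOXO match, and none of these overlapped. The table listed 2 starts each for IL1RL1 and TXNIP, of which the first is printed. No match in a window says only that these letters are not in it.

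Over the 35116 promoters of the table, 7.71% held the AP-1 motif, 1.85% the CRE, 3.42% the FOXO motif, 0.353% the ERR element, 7.26% the E-box, 9.43% the EGR motif, 1.29% a CArG box and 11.3% the NF-kB motif. Of the genes compared, 6910 had a promoter in the table, as did 142 of the 183 rises and 72 of the 90 falls. The AP-1 motif was in 13.4% of the rises, in 15.3% of the falls and in 6.86% of the genes compared. A CArG box was in 9 of the 142 rises (6.34%), in 0 of the 72 falls and in 1.66% of the genes compared. The 9 rises with a CArG box were AQP3, CNN2, EGR1, FAM107B, FHL2, MYADM, NAV2, RND3 and SRF itself, named after their promoters were searched. The NF-kB motif was in 25.4% of the rises, 22.2% of the falls and 16.8% of the genes compared. The EGR motif was in 22.5%, 18.1% and 19.7% of the same sets, and the ERR element in 0.704%, 0% and 0.232%. The FOXO motif was in 2.82% of the rises, in 6.94% of the falls and in 3.29% of the genes compared. These are counts of letters in a fixed window, given without a test.

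Among receptors and ligands of the ErbB family, a ligand rose and no receptor was called. HBEGF, a ligand of EGFR and ERBB4, was at 7.73 and 8.26 with HRG, against 5.50 and 6.07 with vehicle (log2 fold change 2.21, SE 0.24, adjusted p = 0.000354). Both HRG arrays exceeded both vehicle arrays by more than 1.5 log2 units, and the call held with any 1 array left out. ERBB3, the HRG receptor, was at 9.34 and 9.70 with HRG, against 10.41 and 10.32 with vehicle. Both HRG arrays were the lower ones. The change of -0.84 (SE 0.32) was not called with 20 arrays (adjusted p = 0.222) and was with 19 (0.0177), and 2 further probes of ERBB3 gave -0.33 and -0.41. EGFR had a log2 fold change of 0.22 (adjusted p = 0.714), ERBB2 of -0.07 (adjusted p = 0.938) and the ligand EGF of 0.48 (adjusted p = 0.54), and the arrays of each overlapped. These 5 genes were those detected of a list of 15, and NRG1 and ERBB4 were not among them.

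Of 9 inhibitors of ErbB receptors, ERRFI1, with the values above, was the one called. LRIG1, which promotes degradation of the receptors, was at 7.52 and 7.48 with HRG, against 7.98 and 7.88 with vehicle (log2 fold change -0.43, adjusted p = 0.282). The ubiquitin ligases CBL, CBLB and RNF41, the last of which targets ERBB3, had log2 fold changes of 0.15, 0.40 and 0.29, and SOCS4 and SOCS5 of 0.30 and -0.18. A second probe of CBL gave 0.91. The phosphatases PTPN1 and PTPN12 had 0.40 and 0.34. The adjusted p-values of these 7 ran from 0.361 for PTPN1 to 0.896 for SOCS4.

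Several feedback genes of the MAPK cascade rose. Of 12 measured, 4 rose and none fell, against 2.19% and 1.08% of all genes compared. Of the 12, 10 had a positive log2 fold change, against 3690 of 8355, with a median of 0.86 against -0.05. SPRED1, which blocks activation of RAF by RAS, was at 9.90 and 10.00 with HRG, against 7.99 and 8.41 with vehicle (log2 fold change 1.75, SE 0.27, adjusted p = 0.00275), and its call held with any 1 array left out. DUSP5, a nuclear phosphatase of ERK, was at 9.37 and 9.15 with HRG, against 7.12 and 7.51 with vehicle (log2 fold change 1.95, SE 0.34, adjusted p = 0.00717). SPRY2, an inhibitor of receptor signalling to RAS, was at 7.19 and 7.31 with HRG, against 6.24 and 6.0 with vehicle, where 1 of 2 arrays detected it (log2 fold change 1.13, adjusted p = 0.022). In each, both HRG arrays were above both vehicle arrays. DUSP14 rose by 0.76 (adjusted p = 0.0303). The call of DUSP5 was lost without HRG replicate 1 (adjusted p = 0.0848) or vehicle replicate 1 (0.0819). Those of SPRY2 and DUSP14 were lost without any 1 of the 4 arrays, at adjusted p-values of 0.0789 to 0.184 and 0.093 to 0.251. DUSP4 was at 8.73 and 9.66 with HRG, against 7.18 and 8.09 with vehicle, and its log2 fold change of 1.55 had an SE of 1.06 with 20 arrays (adjusted p = 0.588, and 0.0483 with 19). SPRY4, DUSP1 and SPRED2 had 0.99, 0.97 and 0.72 (adjusted p = 0.127, 0.169 and 0.151), and SPRY1, DUSP8 and DUSP16 had 0.23, 0.15 and -0.14. DUSP2, undetected with HRG, had the lowest value, at least 1.16-fold lower with an adjusted p of 0.291. SPRY2 entered through its HRG arrays and DUSP2 through its vehicle arrays, which favours the sign that each has.

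**Figure D2:**
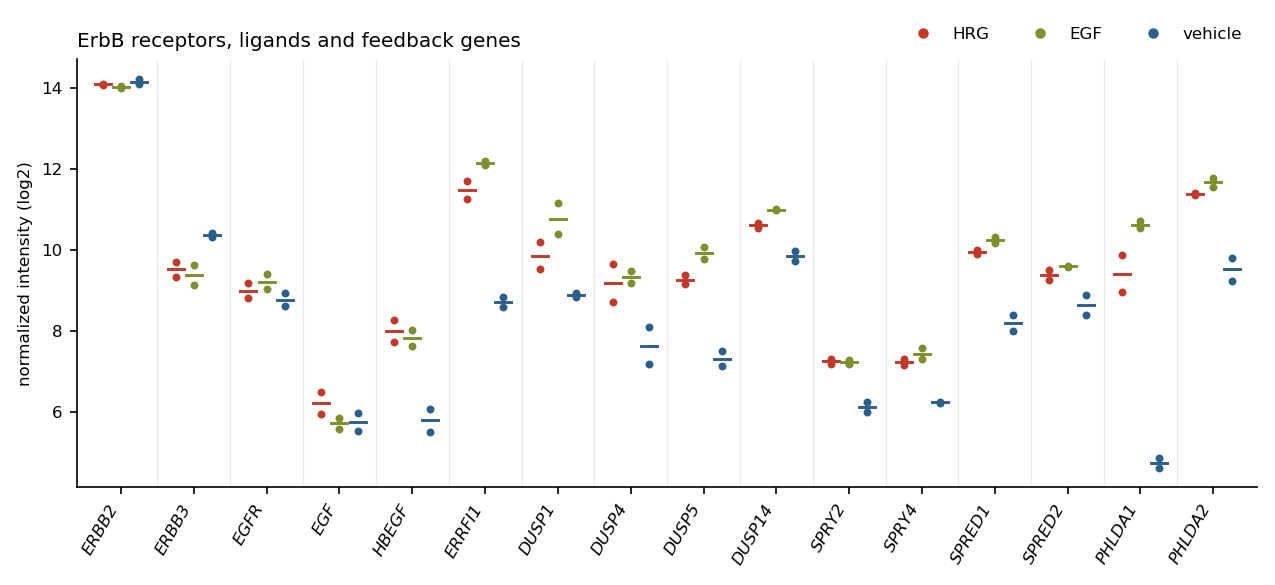
Normalized log2 intensity (y axis) of ErbB receptors, ligands and feedback genes (x axis) in siC cells with HRG (red), EGF (green) or vehicle (blue). Points are single arrays and bars the means of 2 arrays. HBEGF, ERRFI1, DUSP5, SPRED1, PHLDA1 and PHLDA2 lie higher with HRG than with vehicle, while ERBB2 stays near 14 in all 3 groups.

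Of the immediate early and AP-1 genes, all 22 measured had a positive log2 fold change, against 3690 of the 8355 genes compared. They ran from 0.42 for JUND to 1.86 for CCN2, with a median of 1.13. Of these, 9 rose and none fell, against 2.19% and 1.08% of all genes compared. Without the array that stood apart 16 rose, against 4.9%. SRF, the factor that binds the CArG box of early genes, was at 11.36 and 11.50 with HRG, against 9.90 and 10.01 with vehicle (log2 fold change 1.48, SE 0.16, adjusted p = 0.000333). JUN was at 9.84 and 9.63 with HRG, against 8.57 and 7.92 with vehicle (log2 fold change 1.49, SE 0.28, adjusted p = 0.0107). CCN2, a matricellular protein and target of YAP and SRF, was at 10.42 and 10.16 with HRG, against 8.91 and 7.94 with vehicle (log2 fold change 1.86, SE 0.35, adjusted p = 0.0111). Its second probe gave 1.04. No HRG array overlapped a vehicle array in the 3 genes, and vehicle replicate 2 was the lower of its pair for JUN and CCN2. BHLHE40, a repressor of the clock and hypoxia programmes, rose by 1.70 (adjusted p = 0.0208). The call of SRF held with any 1 array left out. Those of JUN and CCN2 were lost without HRG replicate 1 (adjusted p = 0.113 and 0.117) or vehicle replicate 2 (0.14 and 0.142), and that of BHLHE40 without any 1 of the 4, at 0.0866 to 0.157. The other 5 called, named after their values were seen, were CCN1, EGR1, FOSL1, IER5 and IER2, with log2 fold changes from 0.94 for IER2 to 1.64 for CCN1, and each lost its call without any 1 of the 4 arrays, at adjusted p-values of up to 0.38. FOSL1 was undetected with vehicle, so that its change is a bound of at least 1.44-fold. It entered through the HRG arrays, which fixed its sign in the count above. Both measured members of the PHLDA family rose. PHLDA2 was at 11.40 and 11.37 with HRG, against 9.24 and 9.80 with vehicle (log2 fold change 1.86, SE 0.24, adjusted p = 0.000956), and its call and that of PHLDA1 held with any 1 array left out.

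Of 28 cytokine and chemokine genes, 9 were measured, 6 of which were detected on fewer than both vehicle arrays and entered through the HRG arrays, so that no count or median over them is given. Beside TNF and IL1RL1, LIF, a cytokine of the IL-6 family, was at 7.02 and 7.52 with HRG, against 5.74 and 4.93 with vehicle, with 1 of the vehicle arrays detected (log2 fold change 1.93, SE 0.26, adjusted p = 0.00157). CCL20, the ligand of CCR6, was at 7.49 and 6.48 with HRG, against 4.93 and 4.52 with vehicle. It was not above background with vehicle and was at least 2.16-fold higher (adjusted p = 0.00222). The groups did not overlap in either gene, and both calls held with any 1 array left out but not with the 4 arrays alone (adjusted p = 0.0724 and 0.0653). The remaining 2, named after their values were seen, were CXCL8, the neutrophil chemokine IL-8, and CCL2, a chemokine of monocytes. CXCL8 was at 9.57 and 8.29 with HRG, against 5.10 and 4.60 with vehicle, where the probe used was not above background on either array. It was at least 8.29-fold higher by this probe (adjusted p = 0.00333), and its second probe, detected on 1 vehicle array, gave a log2 fold change of 1.55. CCL2 was at 12.06 and 11.11 with HRG, against 8.85 and 7.43 with vehicle (log2 fold change 3.45, SE 0.56, adjusted p = 0.00469). Replicate 1 was the higher in both groups and for both genes. Without HRG replicate 1 the adjusted p was 0.0618 for CXCL8 and 0.08 for CCL2, and without vehicle replicate 2 it was 0.0771 for CCL2. Of 10 feedback genes of NF-kB, 9 had a positive log2 fold change, with a median of 0.57, and 2 rose (4 with 19 arrays). Over all genes compared, 3690 of 8355 were positive and 2.19% rose (4.9% with 19 arrays). TNFAIP3, the ubiquitin-editing enzyme A20, was undetected with vehicle and at least 3.41-fold higher with HRG (adjusted p = 0.00872). It entered through the HRG arrays, which fixed its sign. NFKBIE, an inhibitor of NF-kB, rose by 1.00 (adjusted p = 0.0186). TNFAIP3 kept its call only without HRG replicate 2 and reached 0.123 otherwise, and NFKBIE only without HRG replicate 1 and reached 0.14. IRF1 was the 1 call (2 with 19 arrays) among 20 interferon-stimulated genes, near the 3.27% called over all genes compared. It rose by 1.03 (adjusted p = 0.036) and lost its call without any 1 of the 4 arrays, and the list median was -0.09.

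The genes of the actin cytoskeleton and of adhesion held rises and no falls, and none of these calls held with any 1 array left out. Of 22 actin and focal adhesion genes, 20 had a positive log2 fold change and 6 rose, with a median of 0.61. Among all genes compared, 3690 of 8355 were positive and 2.19% rose (4.9% with 19 arrays). ZYX, zyxin, a focal adhesion protein, was at 11.84 and 11.69 with HRG, against 10.53 and 10.59 with vehicle (log2 fold change 1.21, SE 0.20, adjusted p = 0.00482). The actin binding proteins CNN3, CNN2 and VASP rose by 0.85, 0.73 and 1.45 (adjusted p = 0.0105, 0.0219 and 0.0227), and the other 2 called, MYH9 and VCL, named after their values were seen, rose by 0.98 and 0.99. ZYX lost its call without HRG replicate 1 (adjusted p = 0.0653) or vehicle replicate 1 (0.0523). CNN3 and CNN2 lost theirs without any 1 of the 4 arrays, at up to 0.0946 and 0.173, and VASP in all but the fit without vehicle replicate 2, at up to 0.222. MYH9 and VCL reached 0.224 and 0.271 with 1 array left out. Of 10 integrins and laminins, 2 rose (4 with 19 arrays) and 3 had a negative log2 fold change. ITGA2 and ITGA5, chains of collagen and fibronectin receptors, rose by 1.95 and 1.78 (adjusted p = 0.0466 and 0.0105). ITGA2 was at 9.01 and 7.58 with HRG, against 6.26 and 6.43 with vehicle, so that 1 HRG array carried most of its change, and its adjusted p without HRG replicate 1 was 0.416. ITGA5 was at 7.68 and 7.57 with HRG, against 5.91 and 5.79 with vehicle, where 1 of 2 arrays detected it, and its call was lost without any 1 array, at 0.0526 to 0.0982.

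Among 17 proteases and their inhibitors, 3 rose (5 with 19 arrays) and none fell. Over all genes compared, 2.19% rose (4.9% with 19 arrays) and 1.08% fell. PLAU, urokinase, was at 8.54 and 8.60 with HRG, against 7.11 and 6.27 with vehicle (log2 fold change 1.88, SE 0.28, adjusted p = 0.00274). Its call held with any 1 array left out but was lost in an alternative limma fit (adjusted p up to 0.0651). THBS1, thrombospondin, was at 11.04 and 10.90 with HRG, against 8.28 and 7.48 with vehicle (log2 fold change 3.10, SE 0.52, adjusted p = 0.00532). The HRG arrays of THBS1 lay more than 2.5 log2 units above the vehicle arrays, and its call was lost without HRG replicate 1 (0.0617) or vehicle replicate 2 (0.0803). TFPI2, an inhibitor of serine proteases, rose by 2.27 (adjusted p = 0.0343), and without HRG replicate 1 its adjusted p was 0.335.

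The CDK inhibitor CDKN1A rose, and most genes of replication and mitosis had negative log2 fold changes without being called. Of 11 p53 targets, 3 rose and 1 fell, against 2.19% and 1.08% of all genes compared. Beside CDKN1A, AEN, an exonuclease, was at 10.65 and 11.08 with HRG, against 8.77 and 9.22 with vehicle (log2 fold change 1.86, SE 0.24, adjusted p = 0.000956). Its call held with any 1 array left out. TNFRSF10B, a TRAIL receptor, rose by 0.92 and XPC, a DNA damage sensor, fell by 0.87 (adjusted p = 0.0277 and 0.0343), with up to 0.209 and 0.242 without 1 array. Of 17 G1 cyclins, CDK inhibitors and E2F genes, CDKN1A rose and E2F2 fell by 1.27, with 2 falls for 19 arrays (adjusted p = 0.0297, and 0.308 without HRG replicate 1). None of 39 DNA replication genes was called in the fit of 20 arrays and 2 fell with 19. Of these, 33 had a negative log2 fold change, against 4665 of the 8355 genes compared, with a median of -0.26. Of 55 mitotic genes, 51 were negative, with a median of -0.35. With 19 arrays 7 of the 55 fell, against 3.59% of all genes compared. With 20 arrays 1 fell, near the 1.08% over all genes. That gene was KIF20A, a kinesin of cytokinesis, at 8.44 and 8.69 with HRG, against 9.28 and 9.52 with vehicle (log2 fold change -0.83, SE 0.17, adjusted p = 0.0186), and it kept its call only without HRG replicate 2, with up to 0.181 otherwise. In bulk RNA, fewer cells in a phase cannot be told apart from less RNA per cell.

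Of 9 genes of the MYC network, MXD3 and MXD4, which pair with MAX and oppose MYC, fell, and no other was called. Among all genes compared, 1.08% fell. MYC had a log2 fold change of 0.26 (adjusted p = 0.89). MXD3 was at 5.33 and 5.63 with HRG, not above background, against 7.16 and 7.57 with vehicle, and was at least 2.87-fold lower (adjusted p = 0.00942). MXD4 was at 7.95 and 8.02 with HRG, against 9.24 and 9.21 with vehicle (log2 fold change -1.24, SE 0.31, adjusted p = 0.0466). MXD3 lost its call without HRG replicate 1 (0.105) or vehicle replicate 2 (0.11), and MXD4 without any 1 array, at up to 0.258. MXD1, MNT, MAX, MLX, MLXIPL and MGA had -0.49, -0.32, -0.18, 0.09, -0.27 and 0.70 (adjusted p from 0.603 to 0.968). Of 33 ribosome biogenesis genes, 28 were positive, against 3690 of the 8355 genes compared, with a median of 0.41. LYAR, NOLC1 and PNO1 rose by 0.89, 0.77 and 0.79 (adjusted p = 0.00613, 0.0288 and 0.036), and 6 rose with 19 arrays. Over all genes compared, 2.19% rose with 20 arrays and 4.9% with 19. The highest adjusted p with 1 array left out, vehicle replicate 2 in each case, was 0.093 for LYAR, 0.282 for NOLC1 and 0.282 for PNO1.

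Genes that FOXO factors or PI3K inhibition are known to raise included 4 falls and 1 rise among 18, with a median of -0.23. Among all genes compared, 1.08% fell and 2.19% rose, with a median of -0.05. Beside TXNIP, BCL6, a transcriptional repressor, was at 6.99 and 7.12 with HRG, against 8.47 and 8.66 with vehicle (log2 fold change -1.51, SE 0.30, adjusted p = 0.0154). KLHL24, an adaptor of a ubiquitin ligase, was at 6.27 and 6.42 with HRG, against 7.69 and 7.80 with vehicle (log2 fold change -1.40, SE 0.27, adjusted p = 0.0127). Neither gene overlapped between the groups, and each lost its call without any 1 of the 4 arrays, at 0.0653 to 0.136 and 0.0529 to 0.123. The other fall, named after its values were seen, was CCNG2, a cyclin that restrains the cycle, by 1.62 (adjusted p = 0.0369, and up to 0.264 without 1 array). The rise was KLF2, a zinc finger factor, by 1.05 (adjusted p = 0.0202, and 0.0834 to 0.16 without 1 array). Of 13 genes of the ID and BMP pathway, 2 fell. With 19 arrays 2 rose and 3 fell, against 4.9% and 3.59% of all genes compared. ID2, an inhibitor of basic helix-loop-helix factors, was at 7.26 and 7.20 with HRG, against 8.99 and 9.08 with vehicle (log2 fold change -1.81, SE 0.33, adjusted p = 0.0102). SMAD6, an inhibitor of BMP receptors, fell by 1.21 (adjusted p = 0.0211). ID1 and ID3 had the opposite sign, with 0.51 and 0.59 (adjusted p = 0.32 and 0.0727). ID2 and SMAD6 lost their calls without any 1 array, at 0.0619 to 0.093 and 0.0595 to 0.184. The others ran from -0.80 for TGFB3 (adjusted p = 0.0634) to TGFB2, undetected with vehicle and at least 1.87-fold higher (adjusted p = 0.0753). Between them lay BAMBI at -0.65, SMAD5 at -0.23, BMP7 at -0.20, INHBB at -0.16, BMPR2 at -0.12, TGFBI at 0.19 and ACVR1 at 0.46. A second probe of BMPR2 gave 0.28.

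Of 25 luminal genes, 1 was called with 20 arrays, near the 3.27% over all genes compared, and with 19 arrays 1 rose and 3 fell. OVOL2, a zinc finger factor of epithelial cells, was at 8.03 and 9.02 with HRG, against 10.39 and 10.38 with vehicle (log2 fold change -1.86, SE 0.40, adjusted p = 0.0273, and 0.271 without HRG replicate 1). The luminal list had a median of -0.12. GRB7, an ErbB adaptor that lies beside ERBB2 on the amplicon, was at 8.97 and 9.80 with HRG, against 10.84 and 10.88 with vehicle (log2 fold change -1.48, SE 0.35, adjusted p = 0.0399). Its 2 other probes gave -1.49 and -1.56, its HRG arrays were 0.83 log2 units apart, and its adjusted p was 0.355 without HRG replicate 1. The 8 other amplicon genes measured had log2 fold changes from -0.25 to 0.03. CLDN1, a tight junction claudin, was at 10.69 and 9.40 with HRG, against 7.36 and 6.15 with vehicle (log2 fold change 3.29, SE 0.65, adjusted p = 0.0154), and lost its call without HRG replicate 1 (0.175) or vehicle replicate 2 (0.167). It was 1 of 2 rises (5 with 19 arrays) among 19 junction genes, with CLDND1 at 0.76 (adjusted p = 0.0286, and up to 0.183 without 1 array) and a list median of 0.19. CDH5, a cadherin best known from endothelium, was at 9.64 and 8.87 with HRG, against 7.22 and 6.39 with vehicle (log2 fold change 2.46, SE 0.44, adjusted p = 0.00872), and lost its call without the same arrays (0.117 and 0.116). Of the 5 other endothelial markers none was detected on both arrays of either group.

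**Figure D3:**
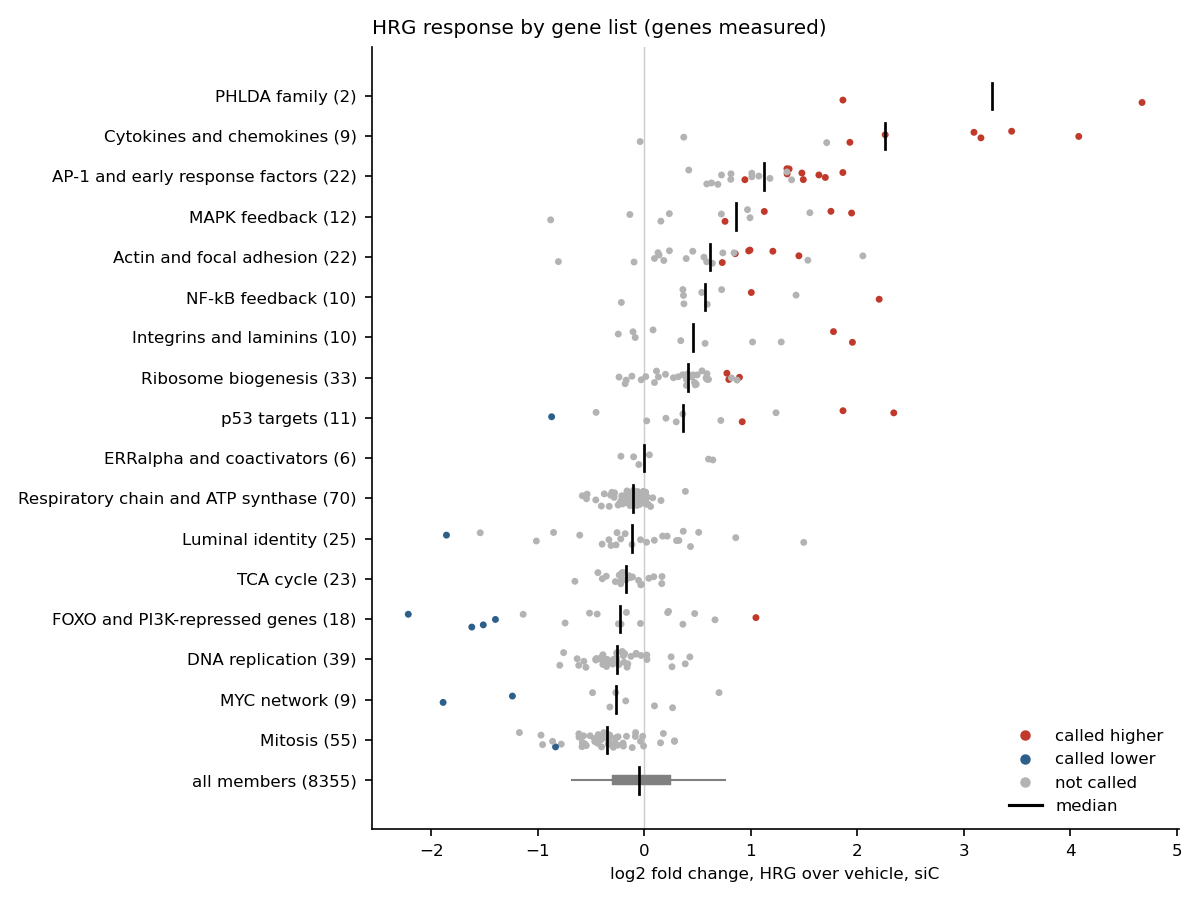
Log2 fold change of HRG over vehicle in siC cells (x axis) for the measured members of 17 gene lists (y axis, number of genes in brackets). Points are genes, red where called higher, blue where called lower and grey where not called; black bars are medians, and the lowest row gives the middle 50% (thick) and 90% (thin) of all 8355 genes; genes undetected in a group are plotted at their fitted value. The AP-1 and early response genes lie wholly above 0, with a median of 1.13, and mitotic genes have a median of -0.35.

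The genes of ERRα and of mitochondrial energy metabolism held no call. ESRRA, the gene of ERRα, was at 8.53 and 8.80 with HRG, against 8.73 and 9.05 with vehicle, and the groups overlapped (log2 fold change -0.22, SE 0.30, adjusted p = 0.845). Its coactivator PPRC1 was at 9.42 and 9.43 with HRG, against 8.75 and 8.81 with vehicle (log2 fold change 0.64), not called with 20 arrays (adjusted p = 0.321) and called with 19 (0.0347). NRIP1, NCOA1, TFAM and GABPA had 0.60, -0.05, 0.05 and -0.10. Of 70 genes of the respiratory chain and ATP synthase, 58 had a negative log2 fold change, against 4665 of the 8355 genes compared. The values of the 70 ran from -0.58 to 0.39 with a median of -0.11. Of 23 TCA cycle genes, 19 were negative, with a median of -0.17. No gene of either list was called with 20 or with 19 arrays. Glycolysis had 1 rise among 21 genes (2 with 19 arrays), PFKFB3, which makes the activator of phosphofructokinase. It was at 11.10 and 11.25 with HRG, against 9.85 and 9.60 with vehicle (log2 fold change 1.45, SE 0.26, adjusted p = 0.00981), and kept its call only without vehicle replicate 1, with up to 0.11 otherwise. In lipid synthesis, with 1 rise and 1 fall among 24 genes and 2 of each with 19 arrays, LPIN1, a phosphatidate phosphatase, rose by 1.31 and THRSP, an activator of fatty acid synthesis, fell by 1.35 (adjusted p = 0.0288 and 0.022, with up to 0.265 and 0.229 without 1 array). Cholesterol synthesis, the glutathione system, the ATF4 response and lysosomal genes had no call among 20, 35, 27 and 25 genes with 20 arrays, and with 19 arrays 1 rise, 1 rise, 2 rises and no call. HSPB8, a small heat shock protein undetected with vehicle and at least 2.09-fold higher, was the 1 call among 28 chaperones (adjusted p = 0.0286, and 1 rise and 1 fall with 19 arrays), BID the 1 call among 11 BCL2 family genes (0.68, adjusted p = 0.0428), and both lost their calls without any 1 array, at up to 0.265 and 0.308. The other 2 probes of BID gave 0.34 and -0.43. Over all genes compared 3.27% were called (8.49% with 19 arrays). The 1 call among 28 chaperones is near that share. Likewise, 1 or 2 calls in the glycolysis, lipid and BCL2 lists are no result about these lists. Of 20 other receptor tyrosine kinases and ligands, EPHA2 and VEGFC rose beside PDGFB, and 3 rose and 2 fell with 19 arrays. EPHA2, an ephrin receptor, was at 7.82 and 8.0 with HRG, against 6.13 and 6.51 with vehicle (log2 fold change 1.59, SE 0.27, adjusted p = 0.00587), and VEGFC, undetected with vehicle, was at least 1.80-fold higher (adjusted p = 0.022). EPHA2 lost its call without HRG replicate 2 (0.0525) or vehicle replicate 1 (0.0759), and VEGFC without any 1 array, at up to 0.168.

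EGF, which acts through EGFR, was given at the same stated dose and set against HRG directly, since both comparisons with vehicle share the vehicle arrays. In the limma fit of 20 arrays no gene was called between HRG and EGF, with 197 genes at an unadjusted p under 0.05 (2.36%). Among these 197 were 40 of the 273 genes called with HRG over vehicle. With 19 arrays 4 genes were called (0.0479%). IQCC, SLC12A8 and MYORG, the last named after its values were seen, were the 3 higher ones (0.0359%) and IER5 the 1 lower (0.012%), and 375 genes had an unadjusted p under 0.05 (4.49%). The median 95% interval of a called gene's difference reached 0.521 log2 units to either side, and for 201 of the 273 genes called with HRG the interval excluded a 2-fold difference in either direction. PHLDA1 was at 8.95 and 9.87 with HRG and at 10.55 and 10.71 with EGF, against 4.63 and 4.85 with vehicle. IL1RL1 was at 8.69 and 7.83 with HRG and at 10.34 and 9.34 with EGF, against 5.54 and 4.79 with vehicle. Both genes were lower with HRG than with EGF on every array, by 1.22 (95% interval of the difference -2.12 to -0.32) and 1.57 (-2.41 to -0.74), without passing adjustment (adjusted p = 1 and 0.525). ADM was at 11.42 and 11.38 with HRG and at 12.25 and 12.16 with EGF, a difference of -0.81 (-1.24 to -0.37, adjusted p = 0.586). TNF, with 8.51 and 8.49 under EGF, had a difference of 0.33 (-0.23 to 0.89) and HBEGF one of 0.17 (-0.36 to 0.70). Of the 183 rises, 133 had a lower mean with HRG than with EGF, and the median difference was -0.14. For the 90 falls the median difference was 0.02. The genes were chosen on the same HRG arrays, and these counts are a description.

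The genes named next had the smallest p-values of HRG against EGF in either direction. IQCC was at 7.92 and 8.13 with HRG, against 7.04 and 7.26 with EGF, a difference of 0.88 (0.55 to 1.21, adjusted p = 0.234), and MYOZ1, H2BC18 and SLC12A8 were higher with HRG by 1.25, 1.05 and 0.91 (adjusted p = 0.435 each). Lower with HRG were TM4SF1, a tetraspanin-like surface protein, at 11.54 and 11.66 with HRG, against 12.45 and 12.30 with EGF (difference -0.77, -1.13 to -0.42, adjusted p = 0.435), and BST2, PPP1R15A and GCNT3, by 1.12, 0.81 and 0.97. PPP1R15A, a subunit of the phosphatase of eIF2α, rose over vehicle by 1.58 with HRG (adjusted p = 0.000789) and TM4SF1 by 0.84 (adjusted p = 0.0145, and 0.08 to 0.12 without 1 array).

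The siERRα arrays received HRG or vehicle in parallel and share no array with the siC comparison. Deviations of same-numbered siC and siERRα arrays correlated at 0.215 for vehicle and 0.259 for HRG, so the sets may share a replicate effect. Of the 273 genes called in siC cells, 272 had the same sign in siERRα cells (99.6%), against 6226 of the 8355 genes compared (74.5%). For 264 of the 273 the siERRα arrays also did not overlap in that direction, against 3771 of all 8355 (45.1%), and 168 were called there (213 with 19 arrays). Both sets of calls use 1 shared estimate of each gene's spread, so that the 168 are not independent of the siC calls. In siERRα cells HRG gave 245 calls (2.93%), 163 higher (1.95%) and 82 lower (0.981%). With 19 arrays it gave 713 (8.53%), 433 higher (5.18%) and 280 lower (3.35%). The 183 rises had a median fitted log2 fold change of 1.14 in siERRα cells and 1.34 in siC cells, and the 90 falls of -0.96 in siERRα cells and -1.20 in siC cells. The change was smaller in siERRα cells for 185 of the 273 genes. The genes were called on the siC arrays, so that a smaller value elsewhere also follows from that choice, and among all genes compared 4229 of 8355 were smaller. PHLDA1 was at 8.80 and 9.85 with HRG, against 5.01 and 5.21 with vehicle in siERRα cells, where it was not above background, and was at least 11.6-fold higher (adjusted p = 0.000112). HBEGF, also undetected with vehicle in siERRα cells, was at least 4.47-fold higher there (adjusted p = 0.000112). CDKN1A had a log2 fold change of 2.38 and SLC40A1 of -2.06 in siERRα cells (adjusted p = 2.6e-05 and 0.00378).

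The difference of the HRG response between siERRα and siC cells was not called for any gene in the limma fit, with 128 genes at an unadjusted p under 0.05 (1.53%), or 348 (4.17%) with 19 arrays and again no call. This difference carries the spread of both HRG contrasts and is less precise than either. A missing call therefore does not show that the responses were equal. The extent of the ERRα depletion on these arrays is not given here. IGF1, the gene without the same sign, had the smallest p. In siERRα cells it was at 4.69 and 5.0 with HRG, against 4.82 and 4.62 with vehicle, undetected on all 4 arrays, so that no direction can be read there. Its difference had an adjusted p of 0.697. The next in the same direction were HEXA-AS1, IL5RA and SNORA68, and in the other H2BC18, YY1P2, IGFL3 and EXTL2, all dim genes with values under 7 on the siC arrays.

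**Figure D4:**
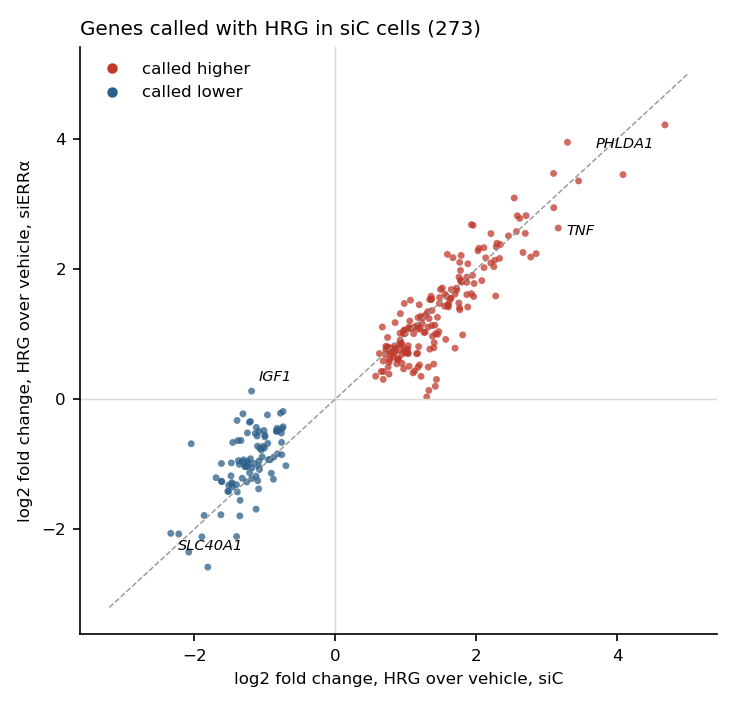
Log2 fold change of HRG over vehicle in siERRα cells (y axis) against that in siC cells (x axis) for the 273 genes called in siC cells, red where called higher and blue where called lower, with a dashed line of equal change. Points are genes and each value rests on 2 arrays a group; all points but IGF1, which was undetected on all 4 siERRα arrays, lie in the quadrants of equal sign. Genes undetected in a group are plotted at their fitted value.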

How the data were processed

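The deposited raw table gave, per the file headers, a bead intensity on a linear scale and a detection p-value for each of 47323 probes on each of 20 arrays. A second deposited table held log2 values that the authors had normalized with lumi in FlexArray, and served as an alternative only. The study's methods name Student's t-tests and SAM.

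For the present tests the raw intensities went through normexp correction based on detection p-values (offset 16), quantile normalization and log2 transformation in limma 3.58.1 under R 4.3.3. The offset understates changes of dim genes. Probes with 1 symbol (30113) and detected at p under 0.01 on both arrays of at least 1 of the 10 groups were kept, and the brightest probe stood for each of 9592 genes. One limma fit of group means on all 20 arrays (10 residual degrees of freedom) gave two-sided tests with Benjamini-Hochberg adjustment over all 9592 genes, called under 0.05. Where all probes of a gene were undetected on both arrays of a group, the change is given as at least N-fold, setting the bright group's mean against a floor, which on each dim array is the lowest signal of any detected probe or, if higher, the value measured.

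Genes were named by a rule: the 12 largest rises and 12 largest falls (10 qualified) whose arrays did not overlap and whose call held with any 1 of the 4 arrays left out, up to 4 called genes per list by p, all measured genes of 8 short lists, and the 4 smallest p-values in each direction of HRG over EGF and of the siERRα difference. The genes compared, the 47 lists (1158 entries), the rule and the tests were chosen with earlier results of these data known. The result of 1 of the lists is not reported here. On simulated data for HRG over vehicle with 9592 genes, the fit recovered 58 of 100 genes changed by 1 log2 unit and 95 of 100 changed by 2, with 9 false calls. The simulated spread was normal and taken from the 19 arrays, without the one that stood apart. It was therefore narrower than in the fit of 20 arrays, and these figures do not give the recovery of that fit. Alternatives covered the offset, background correction, cyclic loess, the authors' table, the detection filter, the probe summary, array weights, the arrays fitted, a replicate block, each array left out and the methods' t-test.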

Additional observations from a re-analysis of the deposited data

How the results depend on the processing

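The 273 genes called with HRG over vehicle numbered 245 to 315 under 8 alternatives of background correction, normalization, filter and probe summary, and 351 with the replicate number as a block. They numbered 709 with 19 arrays, 652 with array weights and 85 with only the 4 arrays compared, 72 of them among the 273. Leaving out 1 array gave 79 to 139. The methods' t-test on the authors' table gave 1161 at an unadjusted p under 0.05 and 0 after Benjamini-Hochberg, and for HRG over EGF 336 and 0, where limma gave 0 in every other alternative except 4 with 19 arrays. In siERRα cells the 245 calls became 713, 692 and 85 with 19 arrays, array weights and only the arrays compared, 63 to 115 with 1 array left out, and 321 with the block. The siERRα difference had 0 calls throughout. The share of called genes with the same sign in siERRα cells ran from 96.2% to 100%. No gene called in the main analysis changed sign, and of its gene-by-alternative values 3213 kept the call and 1155 lost it.

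The replicate numbers are shared between groups, but the labels do not say what they mark. Deviations of same-numbered HRG and vehicle arrays correlated at 0.184. Between all pairs of the 5 groups used here they correlated at 0.149 to 0.315, so that arrays of the same number may share an effect. With 2 numbers the pairing cannot be settled. With the replicate block 351 genes were called, 273 of them the same. The median of all genes compared stayed between -0.05 and -0.02 under every scaling, and 217 of the 273 called genes rest on 1 probe.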

Other observations

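Of the 273 genes called with HRG over vehicle, 194 were in none of the gene lists, 124 higher and 70 lower. The genes below were named after their values were seen. MAK16, a ribosome assembly factor, rose by 1.03 on the log2 scale (adjusted p = 0.00387). It kept its call with any 1 array left out but lost it in an alternative limma fit (adjusted p up to 0.0599). CX3CL1, the chemokine fractalkine, was at 11.40 and 11.97 with HRG, against 9.40 and 9.71 with vehicle (log2 fold change 2.13, SE 0.24, adjusted p = 0.000479). UPP1, uridine phosphorylase, was at 10.91 and 10.64 with HRG, against 8.37 and 8.61 with vehicle (log2 fold change 2.29, SE 0.28, adjusted p = 0.000786). Both calls held with any 1 array left out. SMAD3, a mediator of TGF-β signalling, rose by 1.60 (adjusted p = 0.00241) and TNFRSF10A, a TRAIL receptor, by 1.37 (adjusted p = 0.00054), and these held too. TNFRSF10A lost its call in an alternative limma fit (adjusted p up to 0.055).

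IL4R rose by 1.81, IFNGR1 by 0.84 and IFNGR2 by 0.75 (adjusted p = 0.0172, 0.011 and 0.0488). KLF9, a zinc finger factor, fell by 1.18 and TSC22D3, a leucine zipper protein, by 1.20 (adjusted p = 0.0127 and 0.0289), and SLC2A12 and SLC2A10, glucose transporters undetected with HRG, were at least 1.92-fold and 1.35-fold lower (adjusted p = 0.0166 and 0.0321). The highest adjusted p with 1 array left out was 0.136 for IL4R, 0.143 for IFNGR1, 0.328 for IFNGR2, 0.136 for KLF9, 0.192 for TSC22D3, 0.16 for SLC2A12 and 0.313 for SLC2A10, so that none of these calls held. The second probe of SLC2A10 gave a log2 fold change of 0.04. The fitted log2 fold changes in siERRα cells had the same sign, from 0.49 for IFNGR2 to 0.99 for IL4R among the rises and from -1.27 for SLC2A12 to -0.43 for SLC2A10 among the falls.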
